A study of Mus musculus with 6 samples.

Results

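The proteasome subunit genes described here are the mouse genes whose symbols begin with Psma, Psmb, Psmc or Psmd and end in a number, without the 3 inducible catalytic subunits Psmb8, Psmb9 and Psmb10. The rule uses symbols only and found 36 of the 23227 genes of each exonic table: 16 of the core particle (8 alpha, 8 beta) and 20 of the regulatory particle (6 ATPases, 14 other subunits). The intronic tables, of 23231 genes, held 35 of them. The samples were total RNA, depleted of ribosomal RNA, from immortalized monoclonal lines labelled both as murine mesenchymal stem cells and as fibroblasts. The groups were Dicer KO cells (Dicer -/-) and Dicer WT cells (Dicer f/f), and Dicer WT cells transfected with a vector for Pbx3, Sox9 or Tead4 and with the empty vector. Dicer is the ribonuclease that cuts microRNA precursors, and Pbx3, Sox9 and Tead4 are transcription factors. KO and WT were 1 clone each, and a difference between clones cannot be told apart from the genotype. The labels list 1 sample per group, but every deposited group mean was the mean of 2 libraries, whose reads could be recovered, so that 12 libraries stand behind the values.

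The proteasome degrades proteins that carry ubiquitin chains. Its barrel-shaped core is built of rings of alpha and beta subunits, and the beta subunits Psmb5, Psmb6 and Psmb7 carry the proteolytic sites. The regulatory particle caps the core: its Psmc ATPases unfold the substrate and thread it into the core, Psmd4 binds ubiquitin chains and the deubiquitinase Psmd14 removes them. Psmd5, Psmd9 and Psmd10 bear subunit names but act as chaperones of regulatory particle assembly. The transcription factor Nrf1, gene Nfe2l1, raises the subunit genes together through antioxidant response elements when proteasome activity is short.

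Exonic depth was 6130267 to 23501655 reads per library and intronic depth 3156973 to 10205497. Of 9 mesenchymal markers, 6 stood above 50 normalised counts in every library and Thy1 below 50 in every one; of 8 markers of blood, endothelium and epithelium, 7 were below 50 in every library. The vector genes checked the labels: Pbx3 exceeded vector by 7.04 ± 0.21 and Tead4 by 7.17 ± 0.18 on the log2 scale, with limma adjusted p of 0.00131 and 0.000284. Sox9 stood 1.29 ± 0.39 above vector in Sox9 cells without passing the test (adjusted p = 0.272). Dicer1 in Dicer KO cells was 0.46 ± 0.14 below WT (adjusted p = 0.0859), and total gene reads cannot check a deletion of part of the gene.

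Of the 36 genes, 29 had at least 1 promoter among the RefSeq promoter sequences of GRCm38.p6, with 31 windows of 300 bases in all (250 before and 50 after the transcript start). The core of the antioxidant response element, TGACNNNGC, was in 5 of the 31 windows (16.1%), against 12.4% of all 32851 mouse windows in the table. These 5 were the windows of Psmb5, Psmb6, Psmc6, Psmd9 and Psmd12. The CCAAT box was in 12 (38.7%), against 37.4% of all windows. The ETS core CCGGAA was in 16 (51.6%), against 14.9% of all windows. Both strands were searched, and a window was counted once for a motif however many or overlapping matches it held. Shown here are the 250 bases before the start for 4 genes chosen with their values known: Psmb5 and Psma5, the highest of the 34 in Dicer KO against WT, Psmd8, the lowest, and Psmb6, a catalytic subunit with the element directly before its start. They lie at chr14:54617996-54618245 (minus strand), chr11:70525107-70525356 (plus), chr3:108256676-108256925 (plus) and chr7:29180674-29180923 (minus) of GRCm38.p6, in the order Psmb5, Psmb6, Psma5, Psmd8. Capitals mark the antioxidant response element core in Psmb5 and Psmb6 and the ETS core, read on the other strand, in Psma5.
Psmb5: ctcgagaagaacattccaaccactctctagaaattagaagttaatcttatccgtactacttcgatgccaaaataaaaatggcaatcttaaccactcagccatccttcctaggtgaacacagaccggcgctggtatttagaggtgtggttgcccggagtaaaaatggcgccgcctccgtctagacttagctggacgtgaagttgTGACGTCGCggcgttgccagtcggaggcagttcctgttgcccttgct
Psmb6: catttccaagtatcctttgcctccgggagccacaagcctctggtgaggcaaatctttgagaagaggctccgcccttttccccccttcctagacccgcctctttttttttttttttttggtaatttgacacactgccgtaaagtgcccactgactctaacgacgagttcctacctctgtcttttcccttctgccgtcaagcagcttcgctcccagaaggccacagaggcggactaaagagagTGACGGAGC
Psma5: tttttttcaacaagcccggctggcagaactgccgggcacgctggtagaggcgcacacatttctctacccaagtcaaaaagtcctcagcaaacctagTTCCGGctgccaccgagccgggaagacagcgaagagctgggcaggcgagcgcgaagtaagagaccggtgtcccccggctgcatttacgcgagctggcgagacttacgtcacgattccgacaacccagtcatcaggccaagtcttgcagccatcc
Psmd8: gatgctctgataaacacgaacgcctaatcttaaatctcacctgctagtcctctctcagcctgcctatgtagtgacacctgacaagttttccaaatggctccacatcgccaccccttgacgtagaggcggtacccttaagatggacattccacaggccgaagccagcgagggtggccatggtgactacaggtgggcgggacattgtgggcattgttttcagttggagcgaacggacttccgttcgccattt
The Psmd8 sequence held none of the 3 motifs in these letters. A match or its absence describes these letters and no binding.

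Exonic reads were present for 34 of the 36 genes, all 34 at a mean of 50 or more normalised counts in each of the 4 exonic comparisons. Psma8, an alpha subunit of the testis, and Psmb11, a beta subunit of the thymus, had 0 exonic reads in all 12 libraries, where a count of 0 allows up to 3 reads per library. Psma8 had 2 to 5 intronic reads per group. Levels were compared between genes as exonic reads per kilobase of the longest APPRIS principal transcript and per 1000000 exonic reads. On that scale Psmb2, a beta subunit, had the highest median over the 12 libraries at 228, and Psmd10 the lowest at 16.6, a ratio of 13.7. The gene at the top differed between libraries: it was Psmb2 in the 4 Tead4 and vector libraries, at 229.9 to 270.0, Psmb4 in 3 of the Dicer KO and WT libraries and Psmd8 in the other, with Psmb4 at 363 and 322 and Psmb2 at 208 and 176 in Dicer KO. The 14 measured core genes had a median level of 140 and the 20 regulatory genes one of 91.5. The beta subunits stood at 174, the alpha subunits at 113, the ATPases at 106 and the other regulatory subunits at 78.9. This last value and the 91.5 include the assembly chaperones Psmd5 (37.7), Psmd9 and Psmd10, which lie below both and lower them. Median levels without these 3 genes were not taken. Psmd9, at 17.2, and Psmd10, both assembly chaperones, and Psmd11, a scaffold subunit at 17.8, were the 3 lowest. Psma3, at 26.4, was the lowest core gene, over a transcript of 2846 bases. A shorter transcript in these cells would make its level higher. The same holds for every gene, with 2597 bases taken for Psmd9, 2848 for Psmd11 and 1430 for Psmd10. Ranks and ratios between genes therefore depend on the transcript taken.

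Most members varied less across libraries than members differed from each other. The highest library of a gene was under 2 times its lowest for 30 of the 34, with a median ratio of 1.60. Between genes, the highest median level was 13.7 times the lowest, and the spread was 1.07 to 1.16 (SD, log2) in a library. The ratio across libraries was not taken over all genes. Psmc2, an ATPase, varied least, by a ratio of 1.35. The 4 genes beyond 2-fold were Psmb5 (2.72), Psmb4 (2.59), Psmd8 (2.38) and Psmd12 (2.23). Psmb5 had 113 and 99.2 in Dicer KO on this scale, 76.8 and 79.1 in Dicer WT, and 41.7 to 54.7 in the 8 Pbx3, Sox9, Tead4 and vector libraries. Psmd12, a scaffold subunit, stood lower in the untransfected libraries, with 44.2 and 48.1 in Dicer KO, 42.3 and 36.8 in Dicer WT and 62.8 to 82.1 in those 8 libraries. The transfected and untransfected cells were separate sets of libraries, and no test was made between them. Together the members took 0.486% to 0.640% of the exonic reads of a library.

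**Figure D1:**
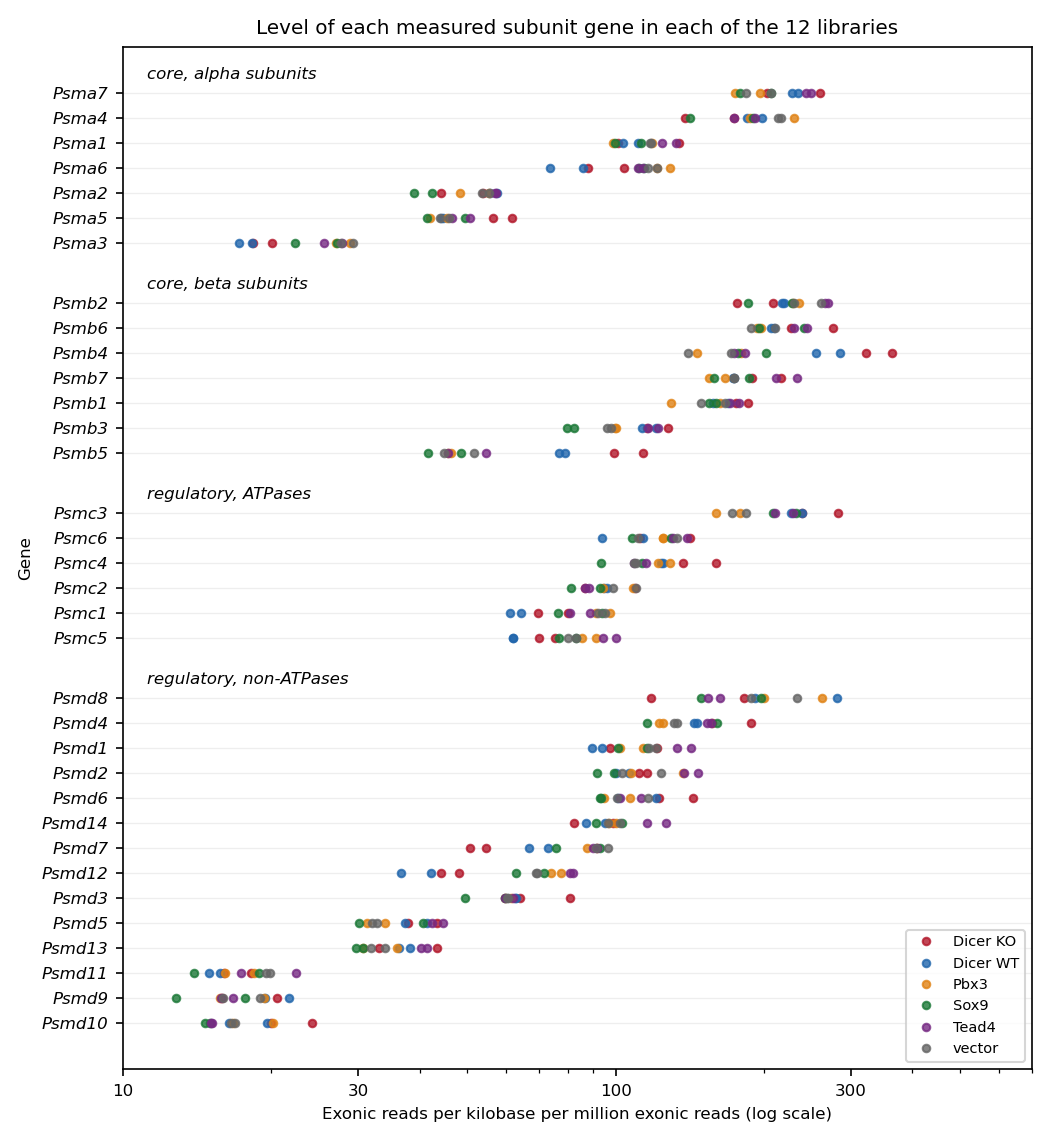
Level of the 34 measured subunit genes in each of the 12 libraries, as exonic reads per kilobase and 1000000 exonic reads on a log axis, grouped by subcomplex and coloured by group. Points of a gene lie close together relative to the distance between genes, from Psmb2 at a median of 228 to Psmd10 at 16.6; Psmb5 and Psmb4 extend to the right in Dicer KO.

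None of the 34 measured subunit genes passed the test in Dicer KO against Dicer WT cells, in exonic reads (limma on log2 of normalised counts plus 1, adjusted p under 0.05 over 10706 genes), where 16.6% of all genes tested passed. The authors' own test, which called 14.0% of these genes, and voom also called 0 of the 34; at an unadjusted p under 0.05 there were 4 (Psmb5, Psma5, Psmb4 and Psmd7), against 34.2% of all genes. Their median difference was 0.17 on the log2 scale, against 0.01 for all genes, and 28 of the 34 lay above 0. Normalised counts are reads divided by a size factor for each library, and the difference is KO minus WT. In bulk RNA, fewer cells of a kind and less RNA per cell cannot be told apart.

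Among the catalytic subunits, Psmb5, the chymotrypsin-like site, had 2199 and 1908 normalised counts in Dicer KO, against 1511 and 1467 in WT. Both KO libraries lay above both WT libraries, and the difference of 0.46 ± 0.14 was the highest of the 34 (limma adjusted p = 0.0809; ± is the standard error, 2 libraries per group). Psmb6, the caspase-like site, had 4747 and 3883 in KO, against 3662 and 3399 in WT. Psmb7, the trypsin-like site, had 5412 and 4697 in KO, against 4411 and 4146 in WT. Both were higher in each KO library than in either WT library, by 0.28 ± 0.15 and 0.24 ± 0.14, with adjusted p of 0.248 and 0.279. Psmb4, a structural beta subunit, stood at 9255 and 8146 in KO and 6607 and 6979 in WT (0.35 ± 0.13; adjusted p = 0.136).

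The alpha ring was mixed. Psma5 had 1648 and 1496 counts in Dicer KO, against 1200 and 1142 in WT, a difference of 0.42 ± 0.14 (adjusted p = 0.0919). Psma4 lay the other way, with 4361 and 3446 in KO and 5062 and 4435 in WT (-0.29 ± 0.17; adjusted p = 0.282). For both, the KO and WT libraries did not overlap. Of the 7 alpha genes 5 were above 0, with a median of 0.13; of the 7 beta genes 6, with a median of 0.24.

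All 6 regulatory ATPases were above 0, from 0.05 (Psmc2) to 0.30 (Psmc6), with a median of 0.26. Psmc4 had 4969 and 4230 counts in Dicer KO, against 3939 and 3675 in WT, without overlap (0.27 ± 0.14; adjusted p = 0.241). The ubiquitin receptor Psmd4 had 5392 and 4466 in KO, against 4263 and 3957 in WT, also without overlap (0.26 ± 0.15; adjusted p = 0.280). Psmd14, the deubiquitinase, had 3280 and 2712 in KO and 3203 and 2763 in WT, which overlapped, and its difference was 0.00 ± 0.16. Psmd8, a lid subunit, was the lowest, with 6057 and 3892 in KO and 9497 and 6082 in WT. Both KO libraries lay below the lower WT library, the one with 6057 only just, and the Psmd8 difference was -0.65 ± 0.30 (limma adjusted p = 0.197). Psmd7, the lid partner of Psmd14, had 1857 and 1709 in KO against 2525 and 2172 in WT (-0.39 ± 0.14; adjusted p = 0.122).

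Core and regulatory genes had medians of 0.15 and 0.19, a difference of -0.05. Without 1 library at a time this difference was -0.02 to 0.00. KO libraries stood wholly above WT for 16 members and wholly below for 4, and overlapped for 14; of all genes, 33.0% stood wholly above and 30.3% wholly below. The 95% intervals of 33 members stayed within 2-fold either way, and that of Psmd8 reached -1.41. Psmd8 was the 1 member at least 1.5-fold apart, against 27.7% of all genes. The SD of the 34 differences was 0.24, against 0.95 for all genes tested. The gap was smaller by the median absolute difference, at 0.24 for members and 0.33 for all genes.

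**Figure D2:**
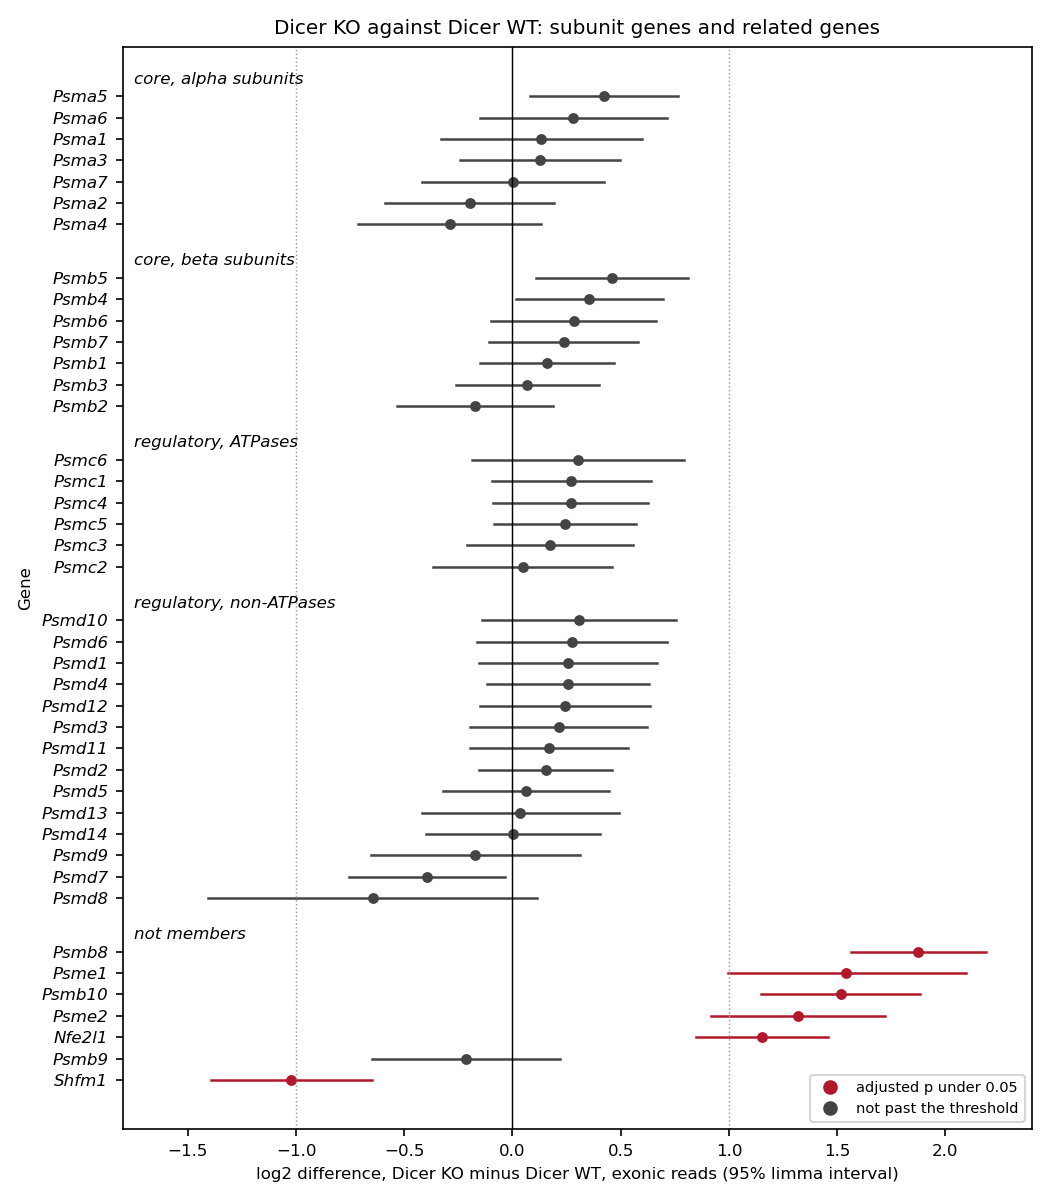
log2 difference of exonic reads, Dicer KO minus Dicer WT, with its 95% limma interval, for the 34 measured subunit genes by subcomplex and for 7 related genes below them; dotted lines mark 2-fold. The member points sit between -0.65 (Psmd8) and 0.46 (Psmb5), none past the threshold, while Psmb8, Psmb10, Psme1, Psme2 and Nfe2l1 lie to the right and Shfm1 to the left in red.

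The members also differed between the 2 libraries of a group. Libraries were ordered along the main direction shared by the within-group library differences, over 6685 genes chosen by level only. In this order the first exceeded the second for 33 of 34 members in Dicer KO, by a median of 0.25, and for 29 in Dicer WT, by 0.13. All genes had medians of 0.01 to 0.04 in the 6 groups. The median of members was -0.01 in Pbx3, 0.16 in Sox9, 0.07 in Tead4 and 0.07 in vector cells. The first library was higher for 15, 27, 24 and 26 of the 34 in these groups. Psmd8 had the largest difference in both clones, 0.64 in KO and 0.64 in WT, and was higher in the first library in all 6 groups, from 0.12 to 0.64. So were Psmb2, Psmc6, Psmd4, Psmd7 and Psmd14. The order was taken from these same exonic reads, with members among the genes used, so a shared direction is partly built in. How many of all genes were higher in the first library, in 1 group or in all 6, was not counted. The difference between the Dicer KO libraries was thus larger than the KO minus WT median of 0.17, which stood at 0.08 without KO library 1 and at 0.28 without KO library 2. What separates the libraries of a group was not tested.

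**Figure D3:**
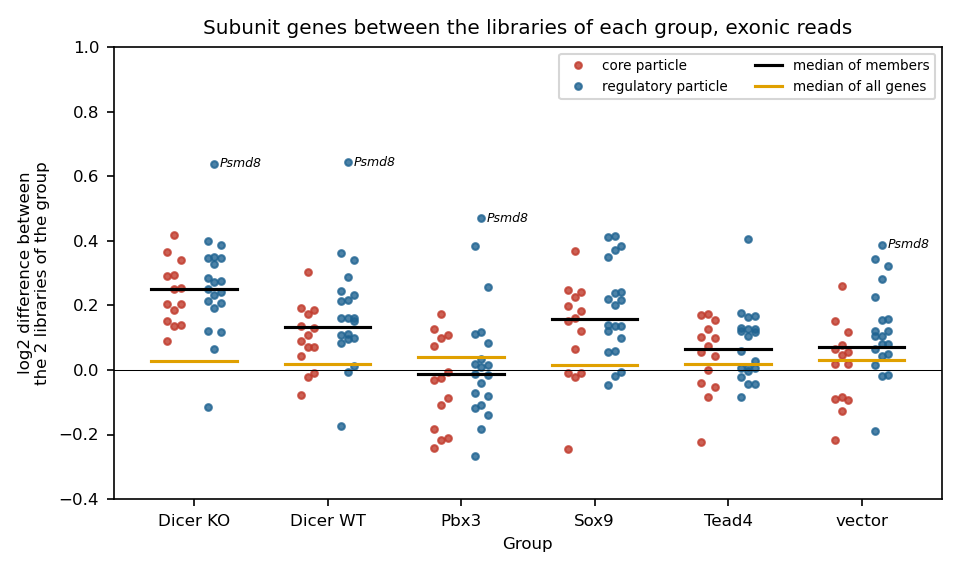
log2 difference of exonic reads between the 2 libraries of each group for the 34 measured subunit genes, split by particle; black lines are the member medians and yellow lines the medians of all genes. Most points of Dicer KO lie above 0, with a median of 0.25, and Psmd8 lies highest in Dicer KO and Dicer WT at 0.64.

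Intronic reads come mostly from unspliced RNA. Of 34 members tested in Dicer KO against WT, 0 passed limma, where 6.51% of all genes did; the authors' test (6.53% of all genes) and voom called 0, and 3 had an unadjusted p under 0.05, against 25.0% of all genes. The median was 0.18, against 0.02 for all genes, and 26 members were above 0. Intronic counts are given in the order of the exonic libraries, which were matched to them by how the libraries of a group differ; for Dicer KO this is the reverse of the order by intronic size factor. Psmb5 had 865 and 682 intronic counts in Dicer KO, against 547 and 478 in WT (0.59 ± 0.18; limma adjusted p = 0.131). Psma5 had 876 and 752 in KO, against 546 and 561 in WT (0.55 ± 0.14; adjusted p = 0.0991). Psmd8 had 845 and 525 in KO against 1259 and 712 in WT, which overlapped (-0.51 ± 0.36; adjusted p = 0.430). The genes at both ends of the exonic comparison were therefore at the ends of the intronic one too, although the same libraries gave both. When the intronic difference was subtracted from the exonic one, 0 of 34 members passed limma, against 6.99% of all genes, and the median was -0.03. At an unadjusted p under 0.05 there were also 0, against 21.4% of all genes. These subtracted values ran from -0.16 (Psmd3) to 0.24 (Psmd10).

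The intronic share of a member's reads differed more between genes than between groups. Medians over the 34 members were 19.8% (vector) to 22.4% (Sox9). Psma4 was lowest in all 6 groups, at 6.62% to 9.04%, and Psmd14, at 49.6% to 59.3%, and Psmd11, at 49.3% to 59.3%, were the highest. Psmd8 held 11.1% to 11.7% in the 6 groups, although its exonic level varied more than that of most members.

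Of 35 tested genes that work with the constitutive subunits, 7 passed the test in Dicer KO cells (20%), a share near the 16.6% of all genes. The inducible subunits replace the constitutive catalytic ones in the immunoproteasome: Psmb8 replaces Psmb5, Psmb9 replaces Psmb6 and Psmb10 replaces Psmb7. Psmb8 rose in Dicer KO, with 4390 and 4172 counts against 1151 and 1181 in WT (1.88 ± 0.12; limma adjusted p = 0.00342). Psmb10 rose as well, with 1280 and 1205 in KO against 448 and 420 in WT (1.52 ± 0.14; adjusted p = 0.00577). Psmb9 did not pass, with 456 and 525 in KO and 532 and 606 in WT (-0.21 ± 0.17). The ratio of Psmb8 to Psmb5 counts was 1.997 and 2.19 in KO libraries against 0.762 and 0.805 in WT libraries, 2.67 times as high. That of Psmb10 to Psmb7 was 0.236 and 0.257 in KO against 0.102 and 0.101 in WT, 2.43 times as high. For Psmb9 to Psmb6 it was 0.096 and 0.135 in KO against 0.145 and 0.178 in WT. These ratios are not per length, so only their change between groups is read, and an exact permutation test of 2 libraries against 2 cannot go below p = 0.333.

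Of the 4 activator genes, which encode caps that open the core without ATP, 2 rose: Psme1, with 1525 and 1564 in KO against 436 and 643 in WT (1.54 ± 0.22; limma adjusted p = 0.0138), and Psme2, with 1044 and 940 against 374 and 420 (1.32 ± 0.16; adjusted p = 0.00944). Of 7 genes of the Nrf1 system, 1 rose: Nfe2l1 itself, with 8757 and 8779 in KO against 3839 and 4053 in WT (1.15 ± 0.12; adjusted p = 0.00678). The other 6, among them the protease Ddi2 and the glycanase Ngly1 that process Nrf1, did not pass. Of 10 tested proteasome-associated genes, 1 rose and 1 fell. Shfm1, the small regulatory subunit that carries no Psm symbol, fell, with 2916 and 3135 in KO against 5585 and 6744 in WT (-1.02 ± 0.15; adjusted p = 0.0146). Ubqln4, a shuttle of ubiquitinated proteins, rose by 0.56 ± 0.13 (adjusted p = 0.0405), and had an adjusted p of 0.142 in the authors' deposited table. All 5 assembly chaperones of the core and 6 ubiquitin genes did not pass. In intronic reads Psmb8, Psmb10, Psme1, Psme2 and Nfe2l1 rose too, by 1.41 (Psmb10) to 1.87 (Psmb8) and by 1.22 for Nfe2l1. Shfm1 (-0.61 ± 0.14; limma adjusted p = 0.0723) and Ubqln4 (0.51 ± 0.19; adjusted p = 0.190) did not pass in intronic reads.

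**Figure D4:**
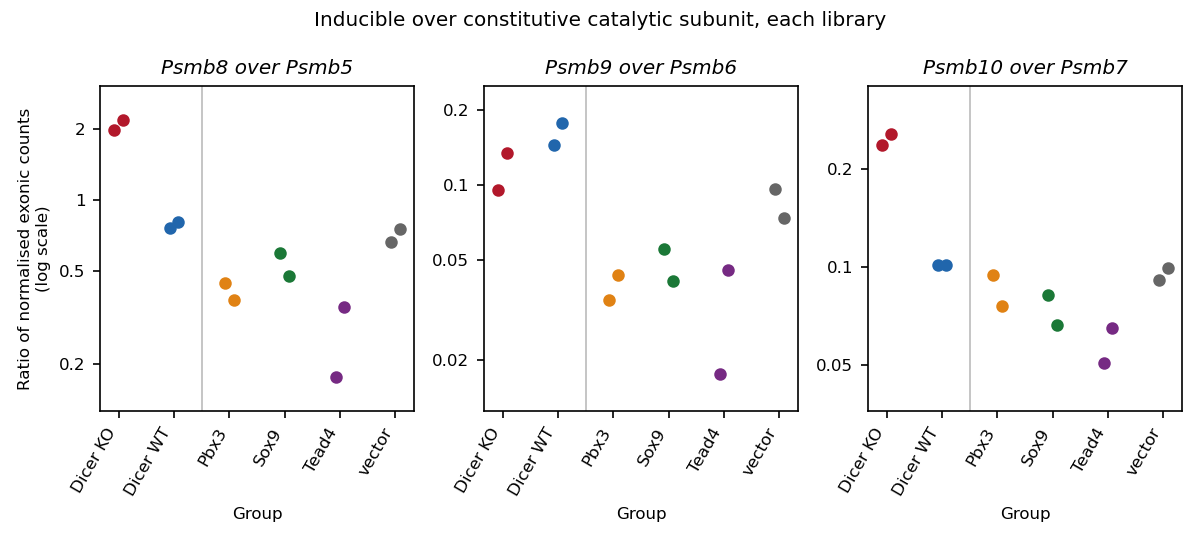
Ratio of normalised exonic counts of each inducible catalytic subunit to the constitutive subunit it replaces, in each of the 12 libraries, on log axes that differ between panels; the vertical line parts the Dicer KO and WT libraries from the transfected ones. Psmb8 over Psmb5 stands at 1.997 and 2.19 in Dicer KO and at 0.762 and 0.805 in Dicer WT, and the Tead4 libraries are the lowest in that panel.

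In Pbx3 cells against vector cells the subunit genes lay close to 0. None of the 34 passed limma in exonic reads, where 0.0102% of all genes did; the authors' test (0.132% of all genes) and voom called 0, and 0 had an unadjusted p under 0.05 (2.37% of all genes). The median was -0.02, against 0.00 for all genes, with 15 members above and 19 below 0. The core median was -0.05, the regulatory one 0.01. The highest was Psmc4, with 1796 and 1786 counts in Pbx3 cells against 1522 and 1593 in vector cells (0.20 ± 0.15), and its libraries did not overlap. Psmd10 had 244 and 277 in Pbx3 against 232 and 240 in vector cells (0.14 ± 0.18). Psmd8 had 4120 and 2975 in Pbx3 and 2785 and 3642 in vector cells, which overlapped (0.14 ± 0.23). The lowest were Psmd11, with 468 and 506 in Pbx3 against 535 and 575 in vector cells (-0.19 ± 0.16), Psmd1 (-0.13 ± 0.15) and Psma1 (-0.12 ± 0.16). Psmd1 is a large scaffold subunit of the regulatory particle.

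The catalytic subunits Psmb5, Psmb6 and Psmb7 differed by -0.06 ± 0.17, -0.02 ± 0.15 and -0.10 ± 0.15, Psmd4 by -0.09 ± 0.15 and Psmd14 by 0.00 ± 0.16, in Pbx3 minus vector cells. Pbx3 libraries stood wholly above vector for 4 members and wholly below for 6, against 12.1% and 12.5% of all genes, and overlapped for 24. All 34 intervals stayed within 2-fold, and 0 members were at least 1.5-fold apart, against 3.25% of all genes. In intronic reads 0 of 34 members passed limma, where 0.0% of all genes did; the authors' test (0.175% of all genes) and voom called 0, and 0 had an unadjusted p under 0.05, against 2.9% of all genes. The widest intronic difference was that of Psmd10, at 69.3 and 80.5 counts in Pbx3 against 46.5 and 53.4 in vector cells (0.57 ± 0.26; adjusted p = 0.9999), from 151 reads in Pbx3 and 99 in vector cells. The authors' normalisation was made for each table on its own, so the same vector reads have other normalised counts in the Sox9 and Tead4 tables.

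In Sox9 cells against vector cells most members lay below 0, again without passing the test. Limma called 0 of the 34 in exonic reads, where 0.547% of all genes passed; the authors' test (1.12% of all genes) and voom called 0, and 1 (Psma2) had an unadjusted p under 0.05, against 13.0% of all genes. The median was -0.15, against -0.02 for all genes, with 5 members above and 29 below 0. It was -0.05 without Sox9 library 1 and -0.20 without Sox9 library 2. Psma2, an alpha subunit, had 943 and 987 counts in Sox9 cells against 1249 and 1365 in vector cells (-0.44 ± 0.16; limma adjusted p = 0.322). Psma4 had 1366 and 1764 in Sox9 against 2017 and 2108 in vector cells (-0.41 ± 0.18; adjusted p = 0.407). Both genes were lower in each Sox9 library than in either vector library. Psmd8 had 1903 and 2428 in Sox9 and 2317 and 3050 in vector cells, which overlapped (-0.31 ± 0.21; adjusted p = 0.568).

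Above 0 were Psmc3, an ATPase, with 2836 and 3040 in Sox9 against 2408 and 2393 in vector cells (0.29 ± 0.16), Psmb4, with 1979 and 1671 against 1626 and 1408 (0.26 ± 0.18), Psmb6 (0.10 ± 0.17), Psmd5 (0.09 ± 0.18) and Psmd4 (0.03 ± 0.19). The libraries of Psmc3 and Psmb4 did not overlap. Psmb5, Psmb7, Psmc4 and Psmd14 stood at -0.12 ± 0.17, -0.03 ± 0.16, -0.11 ± 0.16 and -0.05 ± 0.16 in Sox9 minus vector. The alpha ring was below 0 in 7 of 7 genes, the beta ring in 5 of 7, the ATPases in 5 of 6 and the other regulatory subunits in 12 of 14. Core and regulatory medians were -0.10 and -0.16. Sox9 libraries stood wholly below vector for 16 members, against 23.4% of all genes, and wholly above for 2, against 21.8%. None was at least 1.5-fold apart, against 9.8% of all genes. In intronic reads limma called 0 of 33 members, where 1.99% of all genes passed; the authors' test (1.91% of all genes) and voom called 0, and 5 had an unadjusted p under 0.05, against 17.2% of all genes. Psma2 and Psmd8 were lowest there, Psma2 with 229 and 214 in Sox9 against 327 and 379 in vector cells (-0.67 ± 0.16; adjusted p = 0.0856) and Psmd8 with 240 and 258 against 374 and 379 (-0.60 ± 0.15; adjusted p = 0.102).

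In Tead4 cells against vector cells the members spread to both sides. Limma called 0 of the 34 in exonic reads, where 0.143% of all genes passed; the authors' test (2.09% of all genes) and voom called 0, and 4 (Psmd5, Psmb7, Psma7 and Psmd8) had an unadjusted p under 0.05, against 15.9% of all genes. The median was 0.11, against 0.01 for all genes, with 22 members above and 12 below 0. Psmd5, the assembly chaperone, was highest, with 1914 and 1779 counts in Tead4 cells against 1340 and 1436 in vector cells (0.41 ± 0.13; adjusted p = 0.233). Psmb7 had 2643 and 2342 in Tead4 against 1915 and 2014 in vector cells (0.34 ± 0.13; adjusted p = 0.300). Psma7, an alpha subunit, had 2228 and 2117 in Tead4 against 1796 and 1679 in vector cells (0.32 ± 0.12; adjusted p = 0.301). In these 3 genes every Tead4 library exceeded both vector libraries.

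Psmd8 was the lowest, with 2449 and 2258 in Tead4 against 2751 and 3586 in vector cells (-0.42 ± 0.17; limma adjusted p = 0.312). Psmc2 had 1510 and 1503 in Tead4 against 1675 and 1955 in vector cells (-0.26 ± 0.14), and Psma4 had 2181 and 1936 against 2395 and 2479 (-0.25 ± 0.13). In these 3 genes every Tead4 library lay below both vector libraries. The beta ring was above 0 in 7 of 7 genes, with a median of 0.19, Psmb6 at 0.24 ± 0.12 and Psmb5 at 0.04 ± 0.15. Psmd4, Psmd14 and Psmc4 stood at 0.21 ± 0.12, 0.27 ± 0.14 and 0.02 ± 0.12 in Tead4 minus vector. Core and regulatory medians were 0.11 and 0.08, and their difference of 0.03 was -0.06 to 0.12 when 1 library at a time was left out. Tead4 libraries stood wholly above vector for 17 members, against 25.2% of all genes, and wholly below for 6, against 24.0%. None was at least 1.5-fold apart, against 10.2% of all genes.

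Calls in this comparison, of members and over all genes, depended on which vector library was left out. Such a fit leaves 1 vector library, so its calls are not read as differences of members. Psmd10 again averaged under 50 intronic counts, at 47.9 and 46.5 in Tead4 and 46.5 and 53.5 in vector cells, and was untested there. In intronic reads limma called 0 of 33 members, where 1.61% of all genes passed; the authors' test (1.72% of all genes) and voom called 0, and 3 had an unadjusted p under 0.05, against 15.5% of all genes. Psmd5 was highest there too, with 509 and 424 in Tead4 against 293 and 294 in vector cells (0.66 ± 0.15; adjusted p = 0.0989), and Psmd8 lowest, with 306 and 314 against 417 and 417 (-0.43 ± 0.14; adjusted p = 0.207). The exonic minus intronic difference was called for 0 members by limma in the Pbx3, Sox9 and Tead4 comparisons, where 0.0125%, 0.0128% and 0.0251% of all genes passed, and 2, 2 and 1 members had an unadjusted p under 0.05, against 1.94%, 13.4% and 5.75% of all genes.

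**Figure D5:**
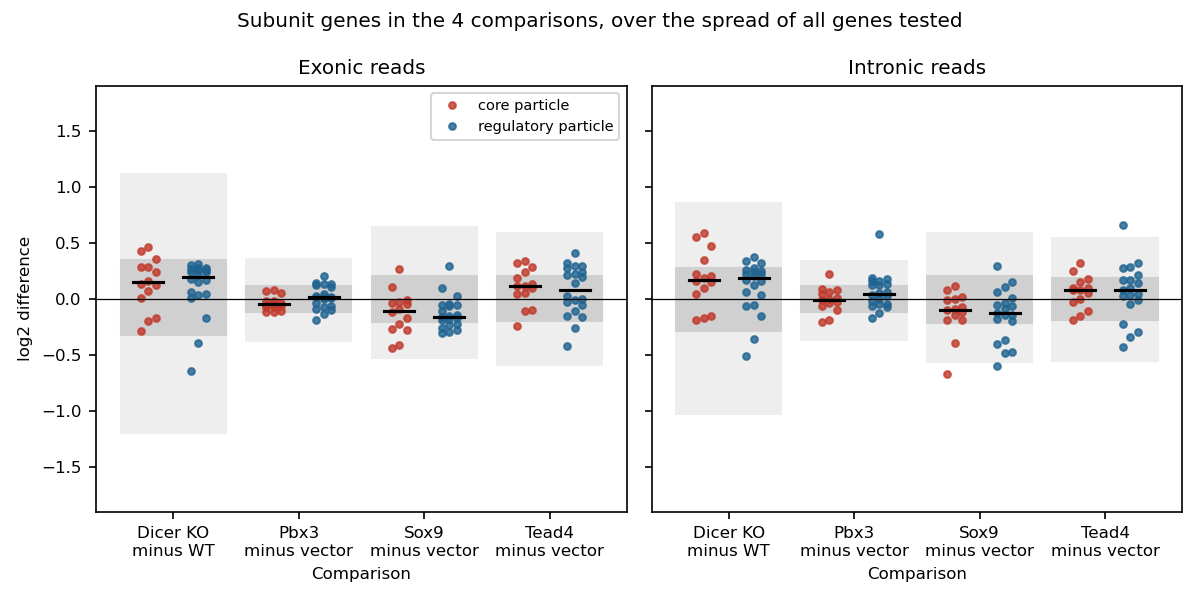
log2 difference of each measured subunit gene in the 4 comparisons, exonic reads left and intronic reads right, split into core (red) and regulatory (blue) particle, with black lines at the medians; grey boxes hold the middle 50% and light boxes the 5th to 95th percentile of all genes tested. Exonic medians of core and regulatory genes are 0.15 and 0.19 for Dicer KO, -0.05 and 0.01 for Pbx3, -0.10 and -0.16 for Sox9 and 0.11 and 0.08 for Tead4, and most points lie within the boxes of all genes.

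In the 3 vector comparisons, which share their vector libraries, the inducible subunits were lower than in vector cells without passing limma. Differences of the 3 genes ran from -1.13 to -0.27 in Pbx3, -0.70 to -0.40 in Sox9 and -1.46 to -0.39 in Tead4 minus vector. The Psmb10 to Psmb7 ratio overlapped between Pbx3 and vector libraries. Psmb8 had 70.9 and 164 counts in Tead4 against 293 and 304 in vector cells (-1.46 ± 0.39; limma adjusted p = 0.185), and an adjusted p of 0.00368 in the authors' deposited table. The Psmb8 differences were -0.85 ± 0.20 in Pbx3 and -0.53 ± 0.19 in Sox9 minus vector. Of the activator, core assembly, associated, Nrf1 and ubiquitin genes, 0 passed limma in any of these 3 comparisons.

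Psmd8 was among the 3 lowest members in Dicer KO (-0.65), Sox9 (-0.31) and Tead4 (-0.42), and Psma4 likewise (-0.29, -0.41 and -0.25), with neither past the test in any of them. In Pbx3 cells Psmd8 was among the 3 highest (0.14) and Psma4 stood at -0.04. The Pbx3, Sox9 and Tead4 values share the same 2 vector libraries. Reads shared with near-identical copies can move a gene's count. Processed pseudogenes named after Psmb5, Psmb6 and Psmb7 are annotated in GENCODE M21. Copies of these or other members under other names are not covered here. Exons of Psma4, Psma5, Psmb7, Psmc3, Psmd1, Psmd3, Psmd9 and Psmd13 overlap exons of a gene on the opposite strand. On the same strand, exons of Psmd1 overlap those of the protein-coding gene Gm21972 and exons of Psmb5 the microRNA gene Mir686, and strand does not part these reads. The libraries were strand-specific, but how reads of overlapping genes were counted is not given in the sources used here.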

How the data were processed

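The total RNA of 6 groups was made into strand-specific libraries for single-end sequencing, per the labels' protocols. The submitters' processing notes name Bowtie2, the mouse build mm9 and DESeq 1.10.1. How exonic and intronic reads were counted, and on which annotation, is not given in the sources. The 8 deposited tables hold, for 4 comparisons, signal columns of group means, which are read counts divided by size factors, per the file headers. The fold and ratio column, the log2 column and the p-value columns are the authors' own, as deposited; only their adjusted p-values were used, and 0 columns of samples were without a group.

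Each group mean was split into the whole reads of 2 libraries, with a unique solution for 100% of genes at a tolerance of 1e-09, which grew in proportion above a value of 1000. Library 1 has the larger size factor; the numbers pair nothing between groups. Nothing says that they are separate cultures, so p-values measure only the spread between libraries, which may be technical. Exonic depth was 6130267 to 23501655 reads; intervals and the floor of 3 reads cover these libraries or counting error only.

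Within each table, genes averaging 50 or more normalised counts were tested by limma 3.58.1 (R 4.3.3) with a trended variance, 2 libraries against 2, on log2(count + 1), Benjamini-Hochberg adjusted over all genes tested, threshold 0.05. The differences understate changes of low genes. Exonic libraries were matched to intronic ones by the sign of the difference within a group. Fits and read recovery were tested on simulated data. Levels per kilobase used transcript lengths of GENCODE M21, and promoters came from RefSeq for GRCm38.p6. Named with values were members past the threshold, the 3 highest and 3 lowest of each exonic comparison, Psmb5, Psmb6, Psmb7, Psmd4, Psmd14 and Psmc4, members below the minimum and listed related genes past the threshold; others named were chosen after their values were seen. Alternatives were other minimums, pseudocounts, centring, left-out libraries, a term for library order, voom weights on the recovered reads and the authors' test. The members, gene lists and tests were chosen with earlier results of these data known.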

Additional observations from a re-analysis of the deposited data

How the results depend on the processing

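Under minimums of 10 and 200, a pseudocount of 5, centring, voom weights (added after seeing the data) and the authors' adjusted p, 0 members were called in each of the 8 tests, exonic and intronic. Leaving out 1 library at a time led to calls of members in some tests. In exonic reads these were Psmd8 in Dicer KO against WT (-0.97, without WT replicate 2) and some members in Tead4. Among the Tead4 ones were Psma7, Psmd2, Psmc2, Psmd8 and Psmd5. In intronic reads they were Psma2 in Sox9 (without vector replicate 1) and Psmc2 and Psmd5 in Tead4. The other tests stayed at 0. The share of all genes called in the same fit is not given here, so these calls are not read as differences of members. In those fits the lone library is assumed to vary like the other group. The members' median ranged from 0.08 to 0.28 for Dicer KO, -0.06 to 0.03 for Pbx3, -0.20 to -0.05 for Sox9 and 0.08 to 0.17 for Tead4; core minus regulatory ranged from -0.022 to 0.12 for Sox9 and from -0.06 to 0.12 for Tead4. Without Psmd5, Psmd9 and Psmd10 the Tead4 value was -0.03. Over all genes, exonic calls ranged from 535 to 1908 for Dicer KO (1782 with every library), 4 to 19 for Pbx3 (1), 73 to 1271 for Sox9 (53) and 5 to 2375 for Tead4 (14); with minimums of 200 and 10 they were 23 and 105 for Sox9 and 9 and 23 for Tead4. Intronic calls ranged from 162 to 955 for Dicer KO (665), 8 to 45 for Pbx3 (0), 114 to 389 for Sox9 (166) and 49 to 900 for Tead4 (138); with a minimum of 200 they were 377 for Dicer KO and 50 for Tead4, and with 10, 210 for Tead4.

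The labels pair no libraries. As a hint from the data, not the design, a replicate block for library order called 12 members in Dicer KO exonic reads (9 higher, 3 lower), 6 in Dicer KO intronic, 2 in Sox9 exonic (Psma2 and Psma4, lower), 6 in Sox9 intronic (all lower) and 2 in Tead4 intronic reads (Psmd5 higher, Psmd8 lower), and 0 in the other 3 tests. These were 35.3%, 17.6%, 5.88%, 18.2% and 6.06% of the members tested; over all genes the block called 47.2%, 30.5%, 18.5%, 18.6% and 16.2% in the same tests. The exonic minus intronic calls of members stayed at 0 under each alternative, while calls over all genes and comparisons went from 661 to 372 with the spread modelled along the mean difference. The 44 exonic values of members named by the rule had 440 values under the alternatives, of which 21 changed sign without passing the test and 15 passed where they had not, 10 with the block and 5 with a library left out. The count test planned for recovered reads was not run, as the deposited columns are group means; voom took its place. With 2 libraries per group, the median standard error of members was 0.15 for Dicer KO and 0.17 for Sox9 exonic reads, so differences of the size of the medians could not be told from 0 for single genes.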
